A study of Mus musculus with 29 samples.

Results

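The immunity-related GTPases (IRGs) are a family of interferon-inducible GTP-binding proteins, and 7 of the 24421 genes in the count table carried the chosen family symbols: Irgm1, Irgm2, Igtp, Iigp1, Tgtp1, Tgtp2 and Ifi47. They were taken from the table by symbol, with earlier results of these data known, and all 7 passed the filter on low counts in every comparison. Each was followed over 7 groups of treatment, day and outcome in a mouse model of peritoneal spread of gastric cancer, in which immune checkpoint inhibitors (ICI) were given as single antibodies or as both together (dual ICI).

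All mice were female C57BL/6J, 5 to 6 weeks old, and all received YTN16 cells, a mouse gastric cancer line, into the peritoneal cavity on day 0. Untreated mice received intraperitoneal PBS. Treated mice received anti-PD1 at 10 mg/kg, anti-CTLA4 at 5 mg/kg, or both, on days 5, 8 and 12 when they were euthanized on day 21, and also on days 21 and 28 when they were euthanized on day 35. RNA came from stripped peritoneum with or without tumor nodules, with 1 library for each mouse. The groups were untreated (n = 5) and dual ICI (n = 5) on day 21, and untreated (n = 5), anti-PD1 (n = 5), anti-CTLA4 (n = 4), dual ICI-uncured (n = 2, mice 1 and 5) and dual ICI-cured (n = 3, mice 2, 3 and 4) on day 35. The cured or uncured outcome was set by matching the mouse number in the labels to the study's description, so results that rest on this split carry that step, whereas the comparison of all 5 dual ICI mice does not. The tissue held host cells beside a single tumor line. The day 21 and day 35 libraries carried different library series in their names, so day and series cannot be told apart. Mouse numbers are those of the sample titles, and the library names of the day 21 dual ICI mice follow another numbering, with gaps.

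Libraries held 25989217 to 31219650 counts, and the members held 56 to 10273 counts each in a library. All samples were labelled as tumor tissue. The 13 gastric epithelial markers summed to 1126 to 3836 CPM (counts relative to the size of the library) in untreated day 35 libraries, but to 20.001 to 96.1 CPM in the 3 dual ICI-cured libraries and to 61.0 CPM in anti-PD1 mouse 5, against 2834 to 3701 CPM in the other 4 anti-PD1 libraries. The 13 skeletal muscle markers took 16.3% to 18.2% of all counts in dual ICI-cured libraries and 16.1% in anti-PD1 mouse 5, where untreated day 35 libraries ranged from 4.44% to 15.8%. By their epithelial markers these 4 libraries went against the tissue label.

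IRG proteins are made in response to interferons, and above all to interferon gamma. They fall into classes by a residue in the nucleotide-binding loop. The GKS class, here Iigp1 (Irga6), Tgtp1 and Tgtp2 (both Irgb6) and Ifi47 (Irgd), holds effectors that load onto the membrane around intracellular parasites such as Toxoplasma, and disrupt it. The GMS class, here Irgm1, Irgm2 and Igtp (Irgm3), holds regulators that sit on the cell's own membranes and keep the effectors in their inactive state there. Because the family is switched on together by interferon gamma released from T cells and natural killer cells, it is commonly read as a sign of that cytokine acting on a tissue.

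The stretches of DNA just before the start of 5 members are shown because they carry the letters of interferon response motifs, both side by side in 4 of them. For 6 of the 7 members a promoter sequence of 300 bases was read (250 before to 50 after the start, from RefSeq on GRCm38.p6). The promoter of Iigp1 was left out and not searched. The sequences were searched on both strands for the gamma-activated site (GAS, TTCNNNGAA) and the interferon-stimulated response element (ISRE, GAAANNGAA). Capitals mark the matches, and each line is written 5′ to 3′ on the strand of its gene, starting 25 bases before the first ISRE match:
Irgm1: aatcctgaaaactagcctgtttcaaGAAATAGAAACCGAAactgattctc
Irgm2: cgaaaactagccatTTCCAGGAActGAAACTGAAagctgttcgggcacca
Igtp: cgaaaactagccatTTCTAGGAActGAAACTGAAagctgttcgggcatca
Tgtp1: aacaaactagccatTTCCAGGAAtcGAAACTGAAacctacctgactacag
Tgtp2: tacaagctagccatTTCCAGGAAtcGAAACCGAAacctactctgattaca

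These windows lie at chr11:48871426-48871475 for Irgm1 (minus strand), chr11:58214888-58214937 for Irgm2 (plus), chr11:58199497-58199546 for Igtp (plus), chr11:48992299-48992348 for Tgtp1 (minus) and chr11:49064258-49064307 for Tgtp2 (minus). In Irgm2, Igtp, Tgtp1 and Tgtp2 the GAS letters stood 2 bases before the ISRE letters. The Irgm2 and Igtp windows were identical at 48 of 50 bases (96.0%), and the Tgtp1 and Tgtp2 windows at 38 of 50 (76.0%). Irgm1 differed in its arrangement, with 2 overlapping ISRE matches and no GAS match, and Ifi47 had neither motif in its 300 bases. Among 32851 promoters of the same length, 8.3% held a GAS match, 8.56% an ISRE match and 1.07% both, against 4, 5 and 4 of the 6 members. Other starts of the same genes were not searched, and a match is a description of letters and not of a bound site.

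**Figure D1:**
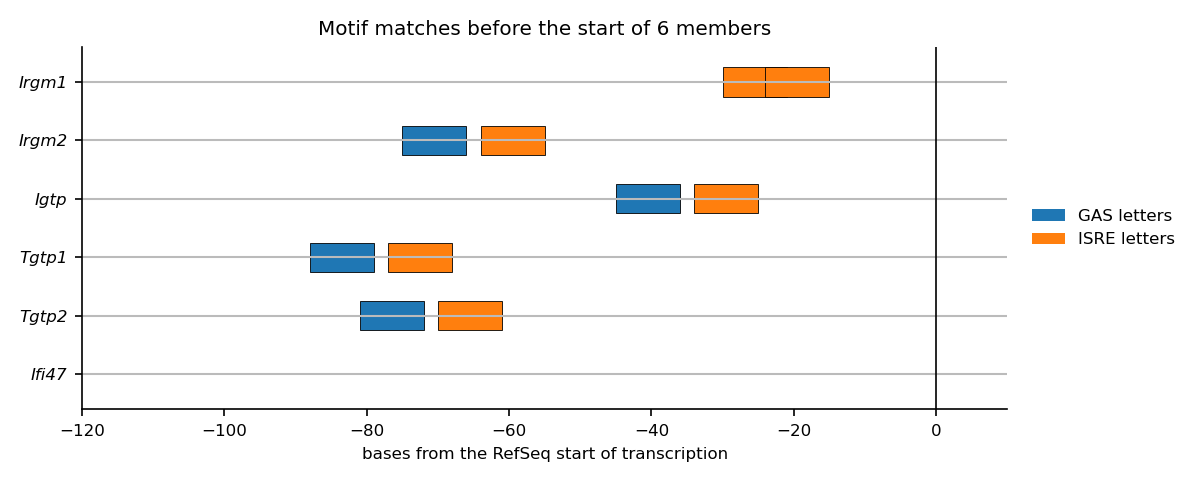
Positions of GAS letters (blue) and ISRE letters (orange) in bases from the RefSeq start of transcription (horizontal axis) for 6 members (rows). The blue bar stands 2 bases before the orange bar in Irgm2, Igtp, Tgtp1 and Tgtp2, Irgm1 has 2 overlapping orange bars, and Ifi47 has none.

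On GRCm38 (GENCODE), 6 members lie on chromosome 11 in 2 clusters. Irgm1 (48861968-48871683, minus strand), Tgtp1 (48985327-48994172, minus), Tgtp2 (49057194-49064206, minus) and Ifi47 (49076587-49096974, plus) form the first. Igtp (58199556-58207591, plus) and Irgm2 (58199618-58222782, plus) form the second, and Iigp1 lies on another chromosome. Several of these genes can trade reads: Igtp and Irgm2 share 162 exon bases on the same strand, Tgtp1 shares 223 with Gm12185, and Ifi47 shares 111 with the olfactory receptor gene Olfr56. Tgtp1 and Tgtp2 are close copies of each other, so the split of reads between them is uncertain.

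Levels are CPM on library sizes scaled by trimmed mean of M-values (TMM). Divided by exon length, the order over all 29 libraries was Igtp (26.0 CPM per kb), Irgm2 (19.9), Ifi47 (15.2), Iigp1 (10.9), Irgm1 (9.75), Tgtp2 (7.61) and Tgtp1 (6.36). The spread across libraries was widest for Tgtp1, with 37.8-fold between its lowest and highest level, and narrowest for Irgm1, with 4.36-fold. Day 21 dual ICI had the highest group mean for all 7 members. The second place was held by dual ICI-uncured for 6 members and by untreated day 21 for Irgm2, and the lowest mean was in dual ICI-cured for 4 members (Irgm1, Tgtp1, Tgtp2 and Ifi47), in anti-CTLA4 for Igtp and Iigp1, and in untreated day 35 for Irgm2. Most neighbouring groups in these orders overlapped in their ranges. The range of day 21 dual ICI stood clear of the second group for Irgm2, Iigp1 and Tgtp2 but not for the other 4 members. For these 3 it still overlapped the anti-PD1 range, through mouse 5 (193, 163 and 44.2 CPM). For Tgtp2 it also overlapped untreated day 21, which reached 28.3 CPM.

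**Figure D2:**
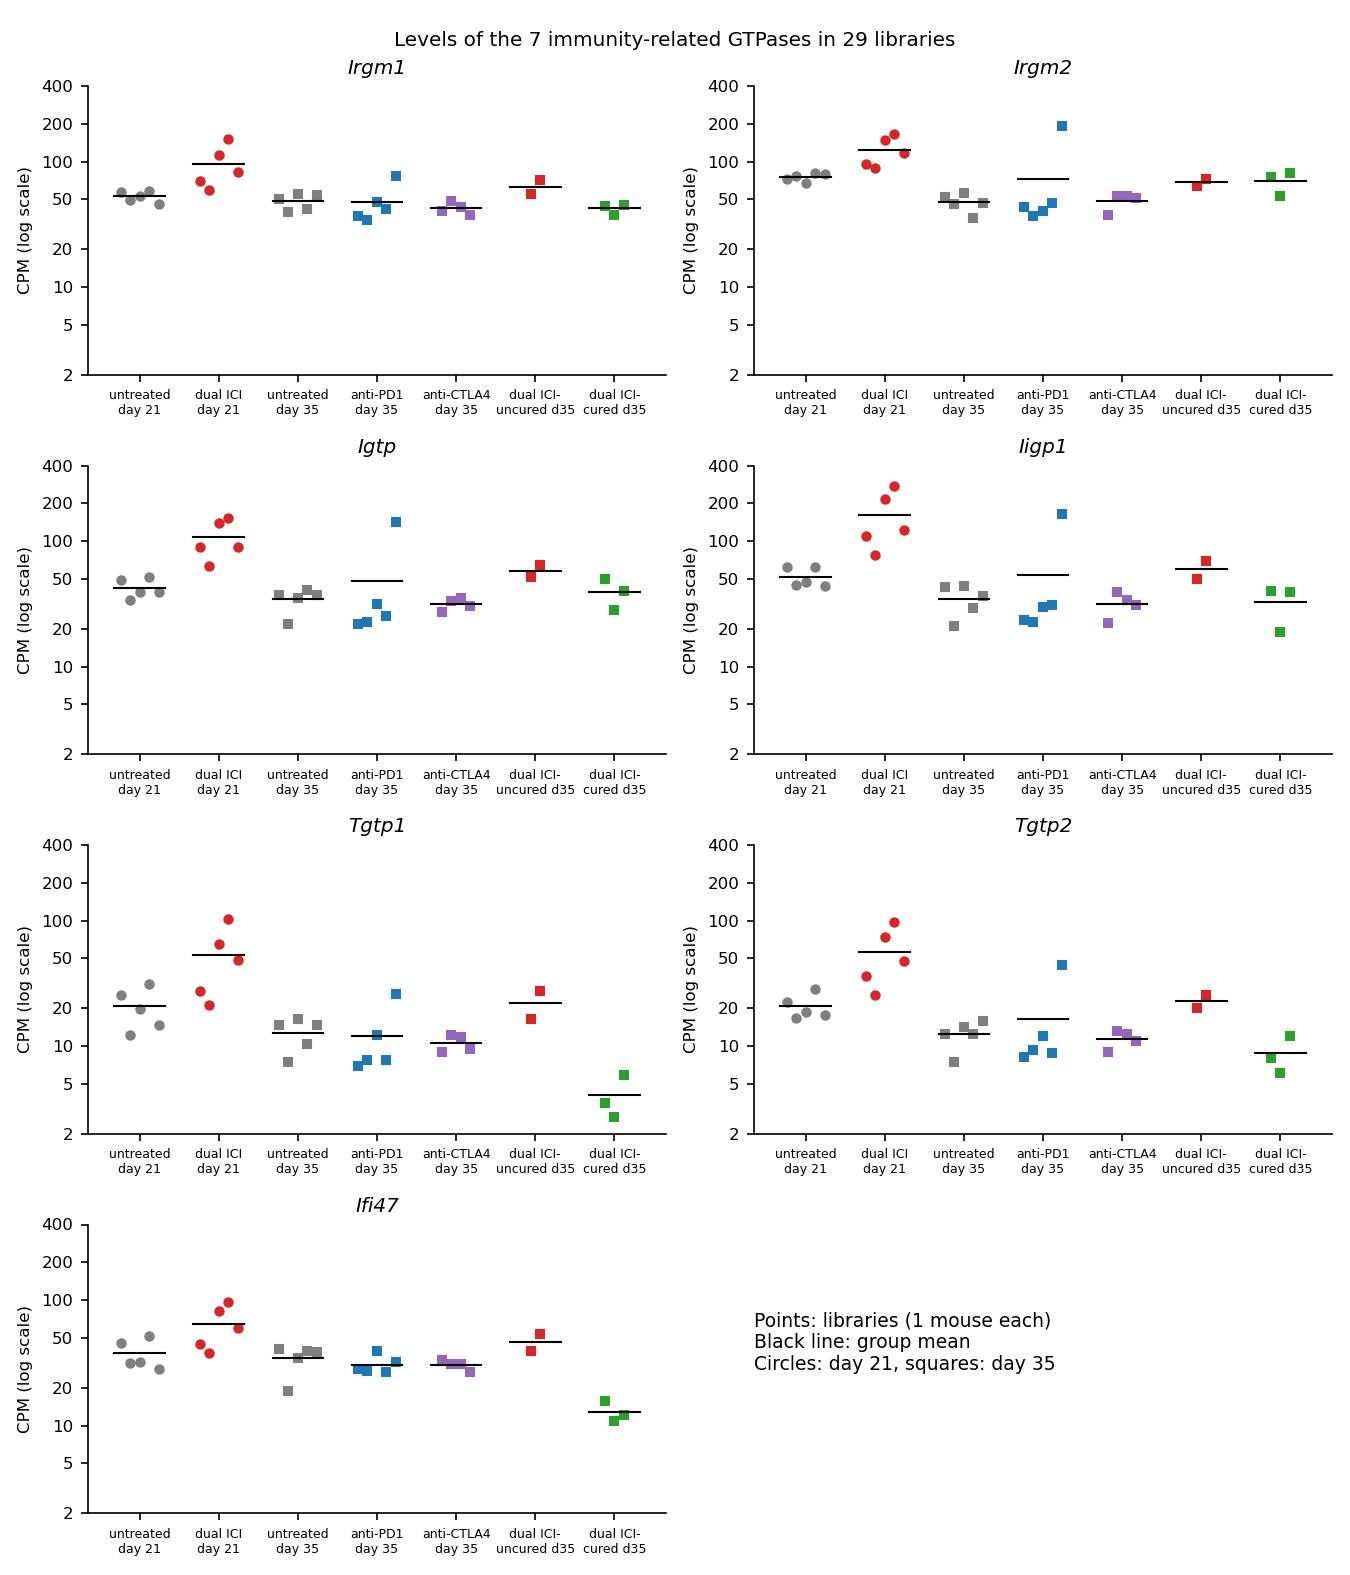
Level of each member (CPM, log scale) in each of 29 libraries (points) by group, with the group mean as a black line; circles are day 21 and squares day 35. Day 21 dual ICI has the highest mean in every panel, the 3 dual ICI-cured libraries are lowest for Tgtp1 (2.73 to 5.86 CPM) and Ifi47 (10.9 to 15.6 CPM), and anti-PD1 mouse 5 stands above the other 4 anti-PD1 libraries for 6 of the 7 members.

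The day 21 comparison asked how tissue under dual ICI differed from untreated tissue at the earlier time point. All 7 members had higher means with dual ICI, by 1.64-fold for Irgm2 to 3.10-fold for Iigp1, and 2 passed the test across all genes: Igtp and Iigp1. Here 0.471% of the 15503 genes tested were called higher. In unadjusted terms all 7 members had p under 0.05 in the direction of dual ICI, where 6.02% of genes did. The median log2 fold change of the members was 1.35, against 0.02 over all genes tested, and it was 0.86 for the 3 regulators and 1.41 for the 4 effectors.

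Iigp1, an effector and the most studied GKS protein, had levels of 61.6, 44.5, 47.3, 62.5 and 44.1 CPM in untreated mice 1 to 5 and 109, 76.9, 216, 275 and 123 CPM in dual ICI mice 1 to 5. The groups did not overlap. Its log2 fold change was 1.63 ± 0.32 (SE, adjusted p = 0.0478 by edgeR's quasi-likelihood test with Benjamini-Hochberg adjustment). Igtp, a regulator found on endoplasmic reticulum and lipid droplets, had 48.6, 33.8, 39.2, 51.3 and 39.0 CPM untreated and 89.6, 63.0, 140.2, 153 and 90.0 CPM with dual ICI. Every dual ICI library was again above every untreated one, and the log2 fold change was 1.35 ± 0.23 (adjusted p = 0.0319). Both calls were near the threshold. Leaving out any untreated mouse, or dual ICI mouse 3 or 5, left 0 of the 7 called. Leaving out dual ICI mouse 4 left 1, whereas DESeq2 called 6. The share of all genes called in these alternative fits is not given here, so these counts lack a background.

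Irgm2, the regulator found at the Golgi, had 72.6, 77.2, 67.4, 81.0 and 79.3 CPM untreated and 95.0, 89.4, 148, 166 and 118 CPM with dual ICI. The ranges were apart, but the adjusted p was 0.114 (log2 fold change 0.72 ± 0.18). Irgm1, a regulator also linked to autophagy and mitochondria, was likewise without overlap, with 46.2 to 58.2 CPM untreated and 59.6 to 151 CPM with dual ICI (0.86 ± 0.23, adjusted p = 0.151). In all, 4 of the 7 members had every dual ICI library above every untreated one, where 1.83% of genes did. The remaining effectors overlapped through the lower dual ICI libraries: Tgtp2 gave 1.46 ± 0.33 (adjusted p = 0.0832), Tgtp1 1.37 ± 0.42 (adjusted p = 0.209) and Ifi47 0.78 ± 0.27 (adjusted p = 0.295).

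The spread among dual ICI mice was shared by the whole family. All 7 members put the 5 mice in the same order, with mouse 4 highest, then mice 3, 5, 1 and 2. Ifng, the gene for interferon gamma, put them in that order too, with 22, 20, 36, 81 and 32 counts in mice 1 to 5. At such low counts the Ifng order of mice 1 and 2, and of mice 3 and 5, is uncertain. In the untreated mice Ifng had 12, 2, 8, 5 and 10 counts, below every dual ICI library, and its order matched that of 0 members. Its log2 fold change was 2.20 ± 0.44 (adjusted p = 0.0539). The values of one library share its RNA, cell makeup and scaling, so the common order is a description of these 5 libraries. In bulk tissue, fewer cells of a type and less RNA per cell cannot be told apart.

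**Figure D3:**
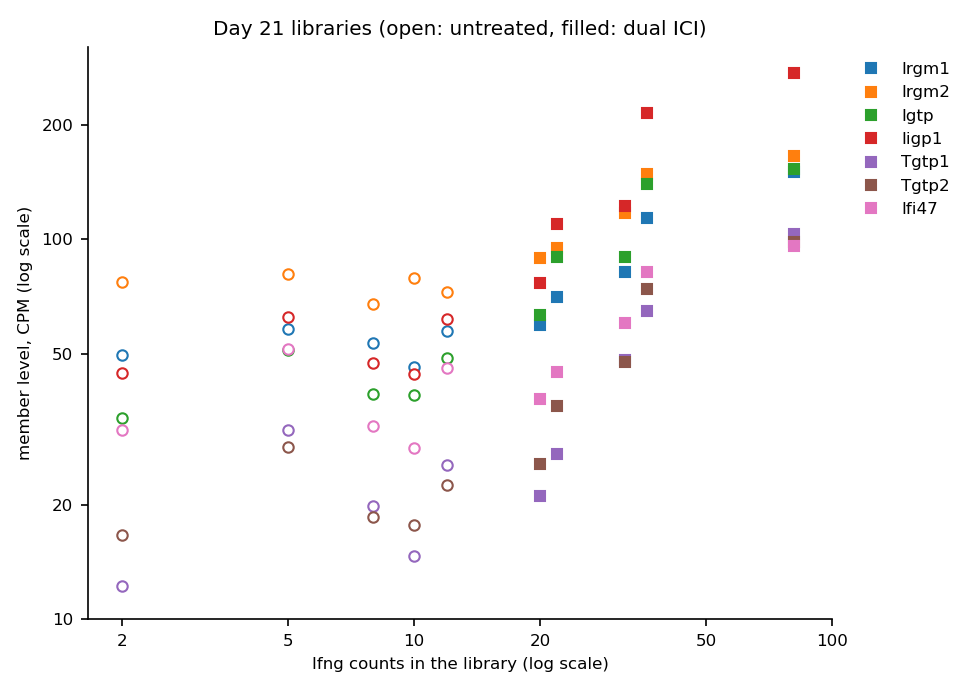
Level of each member (CPM, vertical log scale) against the Ifng count of the same day 21 library (horizontal log scale); open circles are untreated and filled squares dual ICI. The dual ICI libraries lie at 20 to 81 Ifng counts and the untreated at 2 to 12, and each member's levels run upward with Ifng among the filled points.

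Cell markers also differed between the groups at day 21. The summed level of 2 CD8 T cell markers was 11.3 to 32.0 CPM with dual ICI and 1.94 to 5.57 CPM untreated, without overlap, and both markers were called higher. The 9 macrophage markers summed to 1241 to 2164 CPM with dual ICI against 1065 to 1193 CPM untreated, also without overlap, although 0 of 9 were called. The 5 natural killer markers summed to 1.71 to 3.61 CPM with dual ICI and 1.44 to 2.17 CPM untreated, with overlap. Among dual ICI mice, the macrophage sum was lowest in mouse 4 (1241 CPM) and higher in mouse 2 (1795 CPM), the reverse of the members. The CD8 sum was highest in mouse 4 but lowest in mouse 5. The natural killer sum was highest in mouse 4 and lowest in mouse 2, as for the members. Of 7 T cell markers 6 had an unadjusted p under 0.05 upward and 1 was called, and of 5 adipocyte markers 4 had such a p downward with 0 called (median log2 fold change −0.92). The part of these cells in the member levels was not tested.

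Not every member moved by the same factor, and the family's makeup differed between the groups. The ratio of 2 members within a library does not depend on library scaling. The log2 ratio of Igtp to Irgm1 counts was −0.55 to −0.18 in untreated day 21 libraries and 0.02 to 0.34 with dual ICI. The log2 ratio of Iigp1 to Ifi47 was 0.28 to 0.65 untreated and 1.02 to 1.52 with dual ICI. Both ratios were without overlap, and they were chosen with the levels known, so they carry no test. In shares of the 7 members' summed counts, Iigp1 went from 17.2% ± 0.78 (SD, n = 5) untreated to 23.5% ± 2.5 (n = 5) with dual ICI, Irgm2 from 25.4% ± 3.7 to 19.7% ± 3.1, and Ifi47 from 12.4% ± 1.5 to 9.85% ± 0.56.

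The neighbours of the family in the interferon gamma pathway were read from fixed lists. Of 13 interferon gamma signalling genes, 1 was called higher at day 21 and 7 had an unadjusted p under 0.05 upward. The called gene was Irf8, an interferon-induced transcription factor of myeloid cells (log2 fold change 0.99 ± 0.17, adjusted p = 0.0322). The receptor chains Ifngr1 and Ifngr2 gave 0.11 and 0.18 and the kinases Jak1 and Jak2 −0.03 and 0.21, with adjusted p from 0.57 to 0.97. All 11 guanylate binding proteins, the larger interferon-induced GTPases that act with IRGs at parasite membranes, had an unadjusted p under 0.05 upward, and 3 were called, Gbp2b, Gbp10 and Gbp11, at log2 fold changes of 2.71, 2.05 and 1.54. Their median was 1.16. By contrast, the median of 23 type I interferon-stimulated genes was 0.23 with 0 called by edgeR and 3 at an unadjusted p under 0.05 upward. For 13 genes of the targeting and autophagy machinery of IRGs the median was 0.08, with 0 called and 1 at such a p, and for 5 interferon gamma-induced chemokines and ligands it was 1.58, with 0 called and 5 at such a p. DESeq2 counts were not computed for these lists.

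The rest of the family was thinner in these data. Of 12 further IRG symbols, 9 were in the table and 7 were tested at day 21, with 0 called and 3 at an unadjusted p under 0.05 upward. The 12 symbols count Gm12250 and its other name Irgb10 separately, so a symbol not in the table need not be a gene not measured. Gm12250 (Irgb10), a further effector, had 9.65 ± 2.56 CPM (SD, n = 5) untreated and 30.2 ± 14.6 CPM (n = 5) with dual ICI and gave an adjusted p of 0.0531 (log2 fold change 1.66 ± 0.33). Gm4841 gave 1.61 ± 0.35 (adjusted p = 0.0667). Irgq, a distant relative, gave −0.30 ± 0.09 (adjusted p = 0.212).

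On day 35, tissue from mice whose tumors persisted under dual ICI was set against untreated tissue. All 7 members had higher means in the 2 dual ICI-uncured mice than in the 5 untreated mice, by log2 0.37 (Irgm1) to 0.86 (Tgtp2), yet 0 of 7 were called by edgeR (adjusted p = 0.734 for each) and 0 by DESeq2. In this comparison 0% of 16156 genes were called higher. An unadjusted p under 0.05 upward was found for 5 of 7 members (all but Irgm1 and Ifi47) and for 2.74% of genes. This count was 0 without uncured mouse 5 and 0 with all 29 libraries in one fit. Both uncured libraries were above all untreated ones for those same 5 members, and for 9.22% of genes.

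Tgtp2 had 12.5, 7.44, 14.1, 12.5 and 15.8 CPM in untreated mice 1 to 5, and 20.1 and 25.4 CPM in uncured mice 1 and 5. Igtp had 37.0, 21.996, 35.1, 41.0 and 37.3 CPM untreated and 51.5 and 64.3 CPM uncured. For both genes the uncured values lay above the whole untreated range, with Igtp at log2 0.74 ± 0.23 and Tgtp2 at 0.86 ± 0.27. The members' median was 0.74, against −0.01 over all genes. The guanylate binding proteins had a median of 0.73, with 6 of 11 at an unadjusted p under 0.05. CD8 T cell markers summed to 11.6 and 13.0 CPM in the uncured libraries and to 3.09 to 5.69 CPM untreated, and skeletal muscle markers were lower in the uncured libraries for 13 of 13 genes, with 0 called. The part of these markers in the member levels was not tested.

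The day 35 effect of dual ICI in uncured mice minus its day 21 effect was tested directly. The uncured mice were picked by outcome, and the day 21 mice could not be split by outcome. Time and outcome therefore cannot be told apart in this difference. The difference was below 0 for all 7 members, from −0.18 ± 0.27 (Irgm2) to −0.84 ± 0.49 (Iigp1) on the log2 scale, but 0 were called and 0 had an unadjusted p under 0.05. Over all genes 0% were called lower and 3.49% had such a p. DESeq2 also called 0.

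Members went in both directions in cured tissue. Against untreated day 35 tissue, Irgm2 was higher (1 of 7, where 18% of 15816 genes were called higher), and Tgtp1 and Ifi47 were lower (2 of 7, where 26.7% were called lower). Both counts are near the background, so they say little about the family as such. The median was 0.21 for the 3 regulators and −0.94 for the 4 effectors, against −0.05 over all genes. Tgtp1 had 3.53, 2.73 and 5.86 CPM in cured mice 2, 3 and 4, against 14.7, 7.48, 16.4, 10.4 and 14.9 CPM in untreated mice 1 to 5. All cured values were below all untreated ones (log2 −1.64 ± 0.33, adjusted p = 0.00401). Such a separation downward was found for 2 of 7 members, and for 4256 of the 15816 genes. Ifi47, an effector that helps control Toxoplasma, had 15.6, 10.9 and 12.2 CPM cured against 41.1, 18.9, 34.3, 39.0 and 38.3 CPM untreated, also without overlap (−1.39 ± 0.25, adjusted p = 0.00231).

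Irgm2 went the other way, with 75.6, 53.4 and 80.8 CPM cured and 52.1, 46.1, 56.1, 35.8 and 46.9 CPM untreated. The ranges overlapped through cured mouse 3, and the log2 fold change was 0.58 ± 0.18 (adjusted p = 0.0288). This call was lost without cured mouse 2 or 4 (adjusted p = 0.099 and 0.131) or untreated mouse 5 (0.0606). The difference in Irgm2 also rests on library scaling. TMM factors were 0.698 to 0.730 in the cured libraries and 0.791 to 1.20 in the untreated ones. Before scaling, Irgm2 had 1476, 1096 and 1668 counts in the cured libraries, all inside the untreated range of 899 to 1912 counts. Irgm1, Igtp, Iigp1 and Tgtp2 gave −0.17, 0.21, −0.06 and −0.49, with adjusted p from 0.173 to 0.869. With the Tgtp1 and Tgtp2 reads summed, the copies together gave −0.96 (adjusted p = 0.0227), so the size of the difference for Tgtp1 alone rests on how reads were split between them.

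Ratios within a library restate these values without library scaling, and the pairs were chosen with the levels known, so they carry no test. The log2 ratio of Irgm2 to Ifi47 counts was 2.28, 2.29 and 2.73 in cured mice 2, 3 and 4, above the −0.12 to 1.29 of untreated day 35 mice and above every library of the other groups but anti-PD1 mouse 5, at 2.59. The log2 ratio of Tgtp2 to Tgtp1 was 1.19, 1.16 and 1.04 in the same mice. It was 0.78 in anti-PD1 mouse 5 and no higher than 0.44 in the remaining libraries. Irgm2 made up 33.4% ± 1.4 (SD, n = 3) of the members' counts in cured tissue and 21.5% ± 4.3 (n = 5) in untreated day 35 tissue, while Ifi47 made up 6.22% ± 0.92 and 15.1% ± 2.7. The libraries with the high Irgm2 to Ifi47 ratio were those with the low gastric epithelial and high muscle marker levels given above, and the part of tissue makeup in the ratio was not tested.

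**Figure D4:**
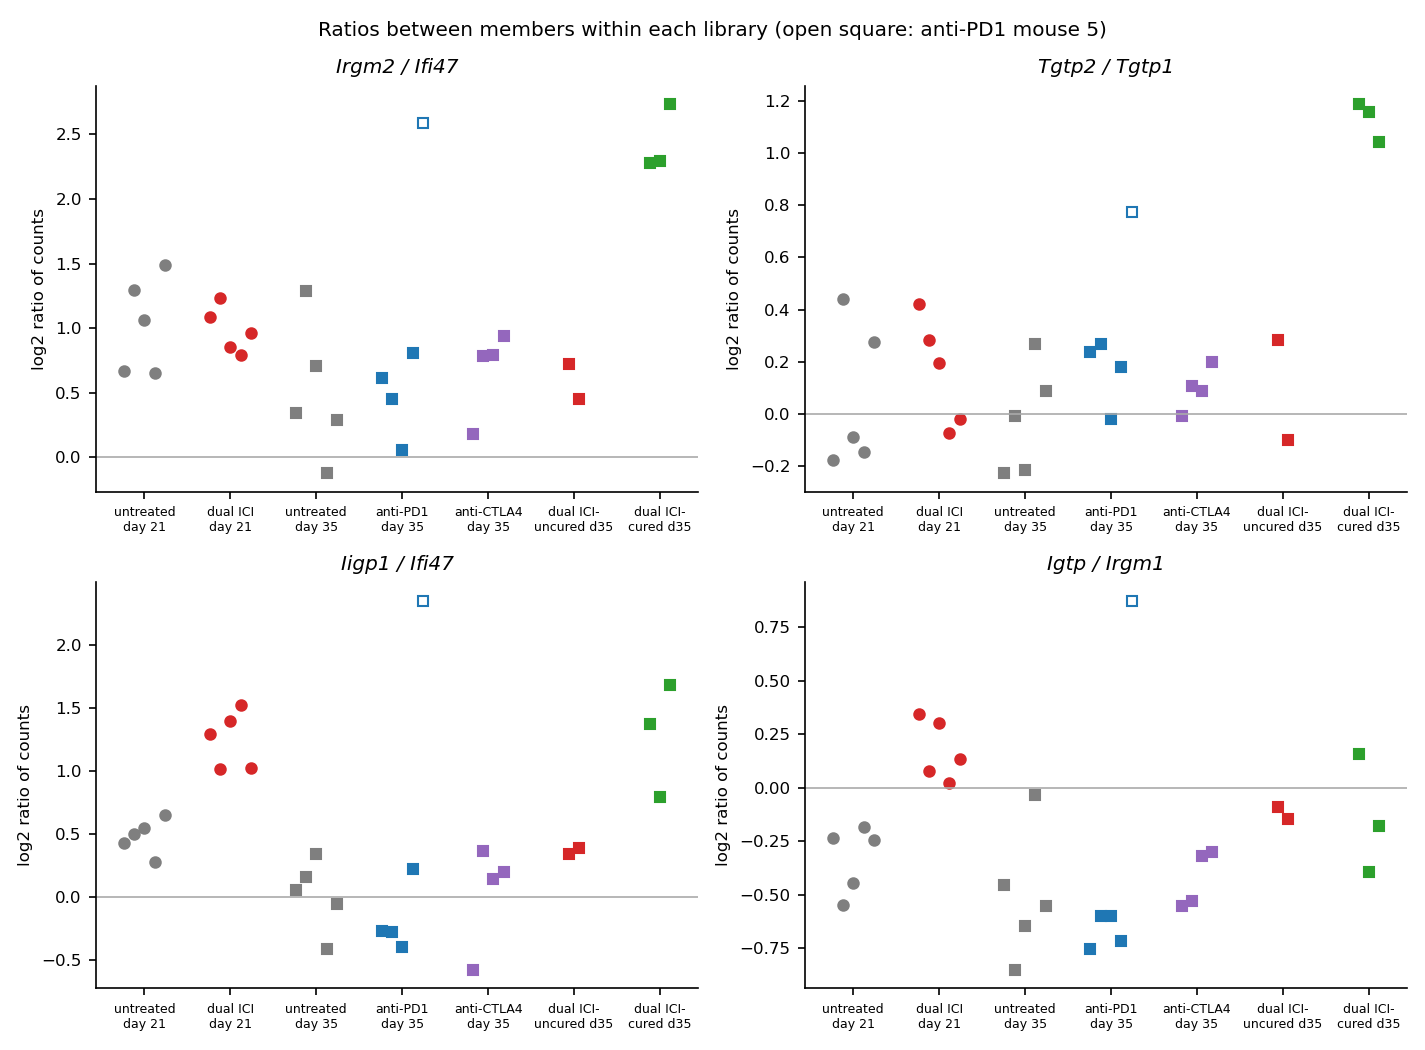
Log2 ratio of the counts of 2 members in each library (points) by group, for 4 pairs; the open square is anti-PD1 mouse 5. The dual ICI-cured libraries lie at 2.28 to 2.73 for Irgm2 over Ifi47 and at 1.04 to 1.19 for Tgtp2 over Tgtp1, above all other libraries except the open square in the first pair, and day 21 dual ICI lies above day 21 untreated for Iigp1 over Ifi47 (from 1.02 against up to 0.65) and for Igtp over Irgm1.

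Within dual ICI on day 35, 6 of 7 members were higher in the 2 uncured than in the 3 cured mice, where 36.9% of 15796 genes were called higher. Ifi47 had the lowest adjusted p of the 7, at log2 1.82 ± 0.18 (adjusted p = 2.9e-05), with 39.1 and 53.3 CPM in the uncured mice. Tgtp1 gave 2.41 ± 0.32 (adjusted p = 0.000186), with 16.5 and 27.3 CPM, and 1.78 with the reads of Tgtp1 and Tgtp2 summed. Tgtp2 gave 1.36, Iigp1 0.85, Irgm1 0.55 and Igtp 0.53, each with uncured values above all cured ones. Both uncured libraries were above all cured ones for 6 of 7 members, and for 6906 of the 15796 genes. Irgm2 did not pass, with 64.4 and 73.0 CPM uncured inside the cured range (−0.05 ± 0.16, adjusted p = 0.795). Without uncured mouse 5 the count of members called was 3. Cell markers differed widely in the same comparison: 8 of 9 macrophage, 6 of 7 T cell, 5 of 5 neutrophil and 7 of 9 gastric epithelial markers were called higher in the uncured mice, and 13 of 13 skeletal muscle and 5 of 5 adipocyte markers lower. The part of these cells in the member levels was not tested.

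Several other pathway genes were lower in cured tissue. Of 12 interferon gamma signalling genes tested against untreated day 35, 6 were called lower (Ifngr1, Irf1, Irf8, Socs1, Nlrc5 and Ciita) and 1 higher (Jak1). The guanylate binding proteins went in both directions, with 3 of 11 called higher and 3 lower, and of the other IRGs Gm4841 (1.40 ± 0.28, adjusted p = 0.00395) and Irgq were called higher. Ifng had 0, 0 and 1 counts in the cured mice, at or under the limit of 3 counts. Of the interferon gamma-induced chemokines and ligands 4 of 5 were called lower (median −2.30). Markers of several cell types were lower as well, with 9 of 10 gastric epithelial, 5 of 5 neutrophil and 5 of 7 T cell markers called, and macrophage markers summed to 723 to 813 CPM against 524 to 1293 CPM untreated. Their part in the member levels was not tested.

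With outcome ignored, all 5 dual ICI mice were compared with the untreated mice on day 35. The test called 0 of 7 members by edgeR and 0 by DESeq2, where 0% of 15588 genes were called higher. Irgm2 alone among the members had an unadjusted p under 0.05 upward (log2 0.55 ± 0.16, adjusted p = 0.634), as did 4.41% of genes. This comparison, those of each outcome and those of the single antibodies all share the same 5 untreated libraries.

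Anti-PD1 alone gave no call either (0 of 7 by edgeR and by DESeq2, where 0% of 15640 genes were called higher, and 0 members at an unadjusted p under 0.05 upward against 0.633% of genes). The means of Irgm2, Igtp, Iigp1 and Tgtp2 were above untreated by log2 0.40 to 0.63, and this rested on mouse 5. Irgm2 had 43.3, 37.1, 40.6, 46.4 and 193 CPM in anti-PD1 mice 1 to 5. Mouse 5 was 4.61-fold above the mean of the other 4 for Irgm2, 5.53-fold for Igtp, 6.13-fold for Iigp1, 4.597-fold for Tgtp2, 2.97-fold for Tgtp1 and 1.91-fold for Irgm1, yet 1.06-fold for Ifi47. These ratios carry TMM factors of 0.692 for mouse 5 and 1.05 to 1.19 for the other 4. Before scaling, Irgm2 had 3738 counts in mouse 5 against 1213 to 1443 in the others. Irgm1 had 1488 against 1131 to 1583, and Ifi47 had 621 against 825 to 1285. Without mouse 5, all 7 members were below untreated, with Irgm2 at −0.19, Igtp at −0.45, Iigp1 at −0.39 and Tgtp2 at −0.39, and 0 called.

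Anti-CTLA4 alone left the members near the untreated levels. The log2 fold changes ran from −0.27 (Tgtp1) to 0.03 (Irgm2), with 6 of 7 below 0. The test called 0 of 7 by edgeR and by DESeq2, where 0% of 15781 genes were called lower, and 0 members had an unadjusted p under 0.05 downward, against 0.52% of genes. For Iigp1 the 4 anti-CTLA4 libraries had 22.2, 39.6, 34.2 and 30.9 CPM, inside the untreated range of 21.1 to 43.6 CPM.

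**Figure D5:**
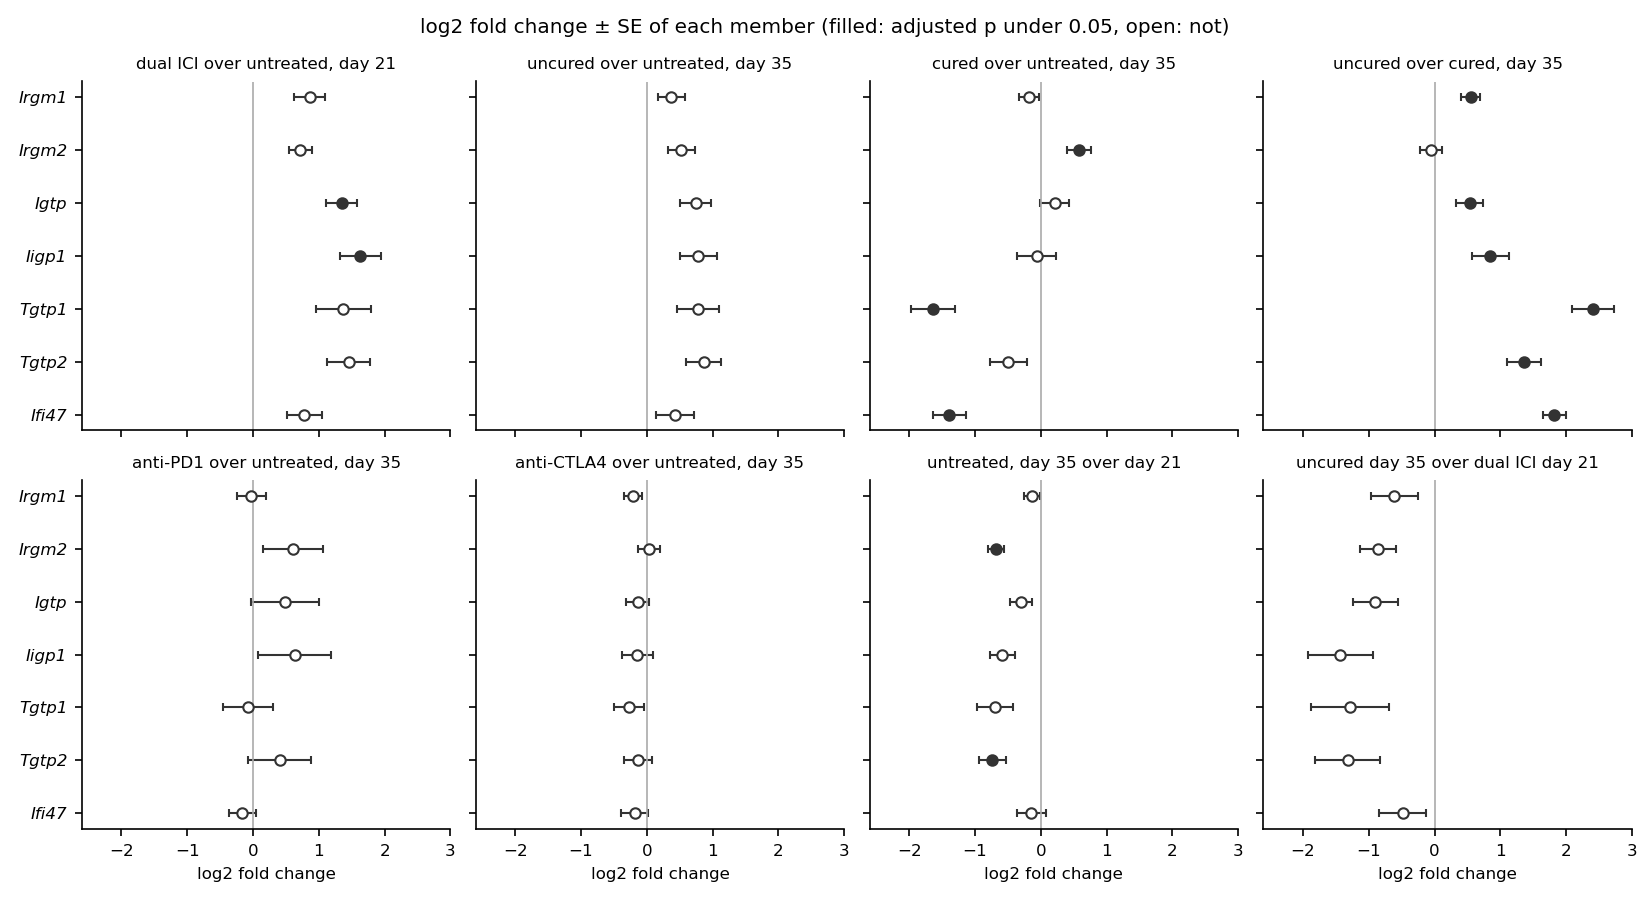
Log2 fold change ± SE (horizontal axis, edgeR) of each member (rows) in 8 comparisons (panels), with filled points where the adjusted p over all genes was under 0.05. Points lie to the right in both dual ICI against untreated panels on day 21 and in uncured mice on day 35, spread from −1.64 to 0.58 in cured tissue, and lie to the left in both panels of day 35 over day 21.

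In untreated tissue all 7 members had lower means on day 35 than on day 21, where day and library series cannot be told apart, and 2 were called, Irgm2 and Tgtp2, where 4.58% of 15604 genes were called lower. An unadjusted p under 0.05 downward was found for 4 members (also Iigp1 and Tgtp1), and for 13.1% of genes. Irgm2 went from 67.4 to 81.0 CPM on day 21 to 35.8 to 56.1 CPM on day 35, without overlap (log2 −0.67 ± 0.12, adjusted p = 0.0101). Tgtp2 went from 16.6 to 28.3 CPM to 7.44 to 15.8 CPM, also without overlap (−0.73 ± 0.20, adjusted p = 0.0421), but this call was lost on leaving out any library but untreated day 35 mouse 2. Every day 35 library was below every day 21 one for 3 of 7 members, and for 811 of the 15604 genes. The median of the members was −0.59 against 0.02 for all genes. Of 11 guanylate binding proteins 6 were called lower, and the interferon gamma signalling genes Jak1 (−0.54, adjusted p = 0.0336) and Ciita (−0.70, adjusted p = 0.0431) were too. Gastric epithelial markers were higher on day 35 for 9 of 10 genes, with 1 called. Fibroblast markers were lower, with 3 of 5 called and summed levels of 4285 to 7282 CPM on day 35 against 7997 to 12191 CPM on day 21, without overlap. The part of either cell type in the member levels was not tested.

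Under dual ICI, all 7 members had lower levels in the uncured mice of day 35 than in the day 21 tissue. The log2 fold changes ran from −0.49 ± 0.36 (Ifi47) to −1.43 ± 0.49 (Iigp1). The uncured mice were picked by outcome and the day 21 mice were not. Day, library series and outcome therefore cannot be told apart in this comparison. The test by edgeR called 0 of 7, where 2.26% of 16135 genes were called lower. DESeq2 called 3, and its share over all genes is not given here. An unadjusted p under 0.05 downward was found for 4 members (Irgm2, Igtp, Iigp1 and Tgtp2) and for 15.4% of genes. Iigp1 had 49.6 and 69.9 CPM in the uncured mice, below the lowest dual ICI library of day 21, at 76.9 CPM. Both uncured libraries were below all those of day 21 for 3 of 7 members, and for 2875 of the 16135 genes. Gastric epithelial markers were again higher on day 35, with 2 of 10 called.

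The genes whose levels followed the family most closely were mostly other interferon-induced GTPases. Each of 16745 genes was ranked by the mean of its Pearson correlation with the 7 members over 29 libraries (log2 CPM), and the leading 10 included Gbp3 (mean r = 0.913), Gbp5 (0.911), Gbp4 (0.911), Gm12250 (0.905), Gbp6 (0.893), Gbp2 (0.884), Apol10b (0.881), Wars (0.878) and Gm4951 (0.866). With group means taken away first, Cd274, the gene for PD-L1 (0.845), stood in place of Wars. Without anti-PD1 mouse 5, an alternative chosen after seeing the data, 9 of the 10 genes of the first list and 8 of the 10 of the second remained. Libraries share depth, scaling and tissue makeup across genes, so these values describe likeness in these samples only.

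Within the family the pairwise r over 29 libraries ran from 0.42 (Irgm2 with Ifi47) to 0.97 (Iigp1 with Tgtp2), with a median of 0.90 over 21 pairs. Irgm1 and Iigp1 reached 0.96 and Igtp and Iigp1 0.97, while Ifi47 was closest to Tgtp1 at 0.92. With group means taken away, the range was 0.28 to 0.95. Without anti-PD1 mouse 5 that range was 0.46 to 0.95. Igtp with Ifi47 then went from 0.56 to 0.90, and Irgm2 with Igtp from 0.88 to 0.59.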

How the data were processed

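Bulk RNA-seq was run on 29 libraries of peritoneal tissue. The authors deposited raw gene counts, 24421 genes by symbol. The submitters' processing notes name STAR 2.7.0f, featureCounts 1.6.4 and mm10, while the study's methods name another counter. The strand setting and annotation are not given in the sources used here, so reads of overlapping and antisense genes cannot be told apart.

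Counts were fitted per comparison in edgeR 4.0.16 (R 4.3.3) with filterByExpr, TMM and the quasi-likelihood test. P-values were adjusted by Benjamini-Hochberg across every gene in the fit, and those under 0.05 were called. Log2 CPM used a prior count of 2. The replicates are separate mice. DESeq2 1.42.0, other scalings, filters, a replicate block and leaving out each library served as alternatives. Self-tests on simulated counts preceded the fits. Counting limits the precision of low genes such as Ifng.

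The 7 members, all lists and markers were chosen with earlier results of these data known. All members were described. Genes of the other lists were named as follows: all tested genes of the IRG and interferon gamma signalling lists could be named, and for the rest the 3 with the lowest p in the day 21 and uncured comparisons, plus the 10 genes with the highest mean correlation. One gene of these lists is not reported here.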

Additional observations from a re-analysis of the deposited data

Results flagged for a closer look

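Over the 7 members and the 5 groups of 4 or 5 libraries, 35 sets of levels were checked for a library far from the others, and 6 were so. Chance marks about 1 in 20 such sets. In anti-PD1 mouse 5, Irgm2 was at 192.987 CPM (next 46.4), Igtp at 140.636 (next 31.8), Iigp1 at 162.939 (next 30.9), Tgtp1 at 25.8142 (next 12.2) and Tgtp2 at 44.1938 (next 12.1), all high. These 5 come from 1 library and are not independent of each other. Its gastric epithelial markers summed to 61.0 CPM, its skeletal muscle markers took 16.1% of counts, and its Ifng level was 0.465 CPM (9 counts), against 0.0611 to 0.303 CPM (2 to 10 counts) in the other 4 mice. The study describes a cured anti-PD1 mouse without giving its number, so its outcome was not assigned here. The sixth case was Irgm2 in anti-CTLA4 mouse 1, low at 37.5575 CPM (next 51.6). The difference between the dual ICI effect on day 21 and that in uncured mice on day 35 passed the test for 0 of the 7 members.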

How the results depend on the processing

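Of the member counts called higher on day 21 (2), DESeq2 gave 6, the replicate block 4, upper-quartile scaling 1, at least 10 counts in every library 1, all 29 libraries in one fit 0, and leaving out 1 library 0 to 3. Of those higher in cured tissue (1), the 29-library fit and the block gave 0 and leaving out 1 library 0 to 1. For uncured over cured (6), the 29-library fit gave 3 and leaving out 1 library 3 to 6. For members lower in untreated tissue on day 35 (2), upper-quartile scaling gave 1, the 29-library fit 0, summing Tgtp1 and Tgtp2 1, which leaves fewer features, and leaving out 1 library 1 to 3. For uncured day 35 under day 21 dual ICI (0), DESeq2 and the block each gave 3. These causes were not tested. The shares of all genes called in the alternative fits are not given here, so their member counts lack a background.

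Reversed log2 fold changes, none of them called, were as follows. For Iigp1 in cured tissue the block gave 0.0741 and leaving out 1 library −0.23 to 0.21. Irgm2 in uncured over cured gave 0.00827 with upper-quartile scaling, 0.0150 with at least 10 counts, and −0.23 to 0.0448 leaving out 1 library. The summed Tgtp1 and Tgtp2 gave 0.0140 for all dual ICI and 0.18 for anti-PD1, against Tgtp1 alone at −0.19 and −0.08. Leaving out 1 library gave, for all dual ICI, Irgm1 −0.0840 to 0.15, Tgtp1 −0.84 to 0.0534 and Tgtp2 −0.11 to 0.39. For anti-PD1 it gave Irgm1 −0.28 to 0.0704, Irgm2 −0.19 to 0.77, Igtp −0.45 to 0.68, Iigp1 −0.39 to 0.83, Tgtp1 −0.56 to 0.0716 and Tgtp2 −0.39 to 0.58. For anti-CTLA4 Irgm2 ran from −0.0595 to 0.14, and for untreated day 35 over day 21 Ifi47 from −0.23 to 0.00652.

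In no comparison with 3 or more pairs were all correlations between same-numbered mice over 0.1 (−0.22 to 0.56 on day 21, −0.65 to 0.37 for anti-PD1, −0.06 to 0.64 for anti-CTLA4), so the numbers were not taken to pair them. Tgtp1 and Ifi47 were called lower in cured tissue under every alternative run. Depth limits Ifng, at 0 to 81 counts. With 2 uncured and 3 cured mice, each value rests on few animals.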
